A study of Mus musculus with 6 samples.

Results

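The genes described here are 10 members of the antioxidant system of the cell: the transcription factor gene Nfe2l2, which encodes NRF2, its inhibitor gene Keap1, and 8 genes of enzymes that NRF2 is known to control or that remove peroxides (Hmox1, Nqo1, Gclc, Gclm, Txnrd1, Srxn1, Prdx1 and Gpx1). They were chosen by name for their role, with earlier results of these data known. All 10 were found among the 31017 genes of the count table. The samples were mouse T helper 17 (Th17) cells grown in culture, 3 libraries of genotype WT (control) and 3 of genotype KO, which the series describes as lacking RTF1, a factor that accompanies RNA polymerase II and promotes H2B ubiquitination. All 6 libraries share the cell type label Th17. The labels used here give neither the driver or method of the deletion, nor the age of the animals, nor the length of culture. They also do not say whether a replicate is a separate animal or culture, so p-values measure the spread between these libraries only.

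NRF2 is a stress sensor held at low levels in resting cells. KEAP1 binds it and, together with the CUL3 ubiquitin ligase, sends it to the proteasome. Oxidants and electrophiles modify cysteines of KEAP1, NRF2 then accumulates, pairs with a small MAF protein and binds antioxidant response elements in front of its target genes. BACH proteins occupy the same elements as repressors. Since this control acts on the protein, the level of the Nfe2l2 transcript does not by itself measure NRF2 activity. Activated T cells produce reactive oxygen species and use glutathione and thioredoxin to buffer them.

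Total counts per library ranged from 16489813 to 51271226. Levels are in CPM, a gene's counts relative to its library's TMM-scaled total, and ± is the SD over the 3 libraries of a group. A gene was called when its edgeR p, adjusted over all tested genes, was under 0.05. Rtf1, the targeted gene, held 94.0, 91.2 and 88.3 CPM in control and 45.3, 30.4 and 26.2 CPM in KO (log2 fold change −1.42, adjusted p by edgeR = 0.000755), so part of its transcript was still counted. The T cell markers Cd3e, Cd3g, Cd3d, Trac and Cd4 were detected in every library, with a summed level of 1137 to 1477 CPM in control and 1071 to 1353 CPM in KO. Within that sum Cd4 was called lower (−0.94) and Cd3e (0.71) and Cd3g (0.72) higher, as log2 fold changes. The Th17 markers Il17a, Il17f, Il23r and Ccr6 were called lower, with mean levels from 27.5 (Il23r) to 1231 CPM (Il17f) in control and from 10.9 (Il23r) to 507 CPM (Il17f) in KO. Lists for fibroblasts, erythroid cells, B cells and for CD8 and NK cells summed to at most 12.9 CPM in any library. Within these lists Nkg7 was called higher, at means of 0.338 CPM in control and 2.53 CPM in KO. Cd79b was called lower, at 0.603 and 0.158 CPM. Mitochondrial transcripts took 0.642% to 1.16% of counts in control and 1.11% to 1.44% in KO, and the part of this in the results was not tested. Replicate 3 of both groups stood apart from the others by carrying counts of 4 Y-linked genes (11376 in control and 5147 in KO, against 1 to 3 in the other libraries), so values from replicates 1 and 2 alone are given where they end a call or move a difference by over 1.5 times.

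All 10 genes passed the filter on low counts and were tested. Of these, 4 were called, 3 higher in KO (Srxn1, Nfe2l2 and Txnrd1) and 1 lower (Hmox1). This is 40% of the members, while 46.1% of all 14268 tested genes were called, 23.2% higher and 22.9% lower, so the share called was close to the background of this comparison. In 5 of the 10 genes the KO and control libraries did not overlap in CPM, against 57.9% of all tested genes. The median log2 fold change of the 10 genes was 0.35, beside 0.013 over all tested genes. Without control replicate 3 the median of the 10 was 0.075.

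**Figure D1:**
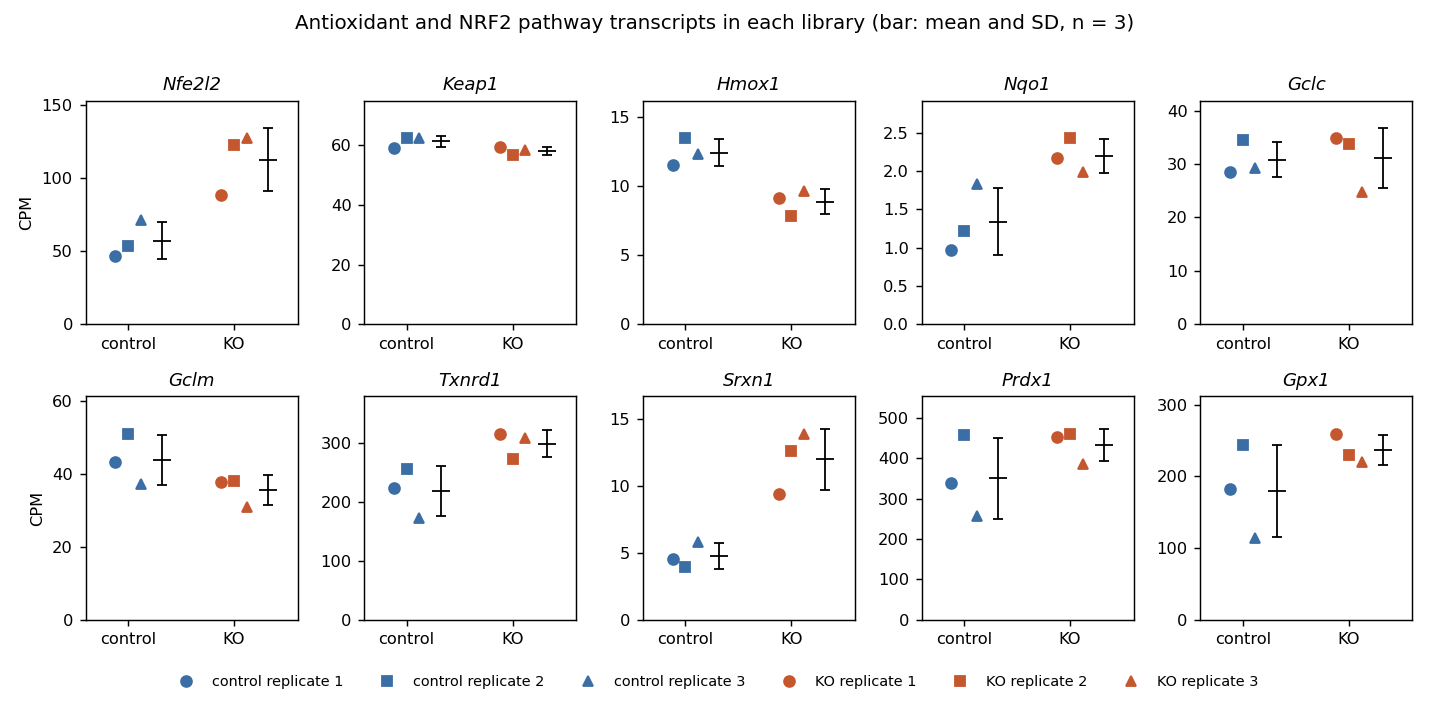
CPM of each of the 10 genes (vertical axes, from 0) in the 3 control and 3 KO libraries, with a symbol for each replicate number and a bar for the mean and SD of each group. KO libraries lie above all control libraries for Nfe2l2, Srxn1, Txnrd1 and Nqo1 and below them for Hmox1, and control replicate 3 is the lowest library for Txnrd1, Prdx1 and Gpx1.

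To print the letters near the start sites that NRF2 is known to read, promoters in the RefSeq set (build GRCm38.p6, 250 bases before to 50 bases after each start site) were searched for the core of the antioxidant response element, TGACNNNGC, on both strands. RefSeq promoters were matched for 8 of the 10 genes, all but Hmox1 and Gclc. A match lay in 1 promoter each of 5 genes, while 12.4% of all 32851 promoters, and 16.8% of the tested genes with a promoter, held one. The stretches below run 5′ to 3′ along the gene's own strand, with the match in capitals. They lie at chr2:75704885-75704913 on the minus strand for Nfe2l2 and on the plus strand at chr3:122245413-122245441 for Gclm, chr10:82859104-82859132 for Txnrd1, chr2:152105542-152105570 for Srxn1 and chr4:116685456-116685484 for Prdx1.
Nfe2l2: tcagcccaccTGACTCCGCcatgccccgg
Gclm: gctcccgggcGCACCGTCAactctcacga
Txnrd1: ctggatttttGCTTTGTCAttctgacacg
Srxn1: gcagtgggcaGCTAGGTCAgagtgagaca
Prdx1: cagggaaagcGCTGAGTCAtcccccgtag
The capitals of the last 4 hold the core as its reverse complement. The first capital base lay 240, 134, 92 and 133 bases before the start site in Nfe2l2, Gclm, Txnrd1 and Prdx1, and 28 bases after it in Srxn1. Txnrd1 has 3 promoters in this set, and the other 2 held no match. The promoters of Keap1, Nqo1 and Gpx1 held none in this window, which says nothing of elements farther away.

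The same promoters were searched for the AP-1 site TGANTCA, which is its own reverse complement and can overlap the antioxidant response element. It occurred in 7.81% of all promoters and in 6.38% of the tested genes with a promoter. Among the 8 genes, only the promoters of Srxn1 and Prdx1 held the site, with 2 copies each. The copies lie at chr2:152105412-152105438 and chr2:152105469-152105495 for Srxn1 and at chr4:116685352-116685378 and chr4:116685458-116685484 for Prdx1, all on the plus strand.
Srxn1, first copy: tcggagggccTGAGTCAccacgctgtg
Srxn1, second copy: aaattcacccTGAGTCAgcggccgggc
Prdx1, first copy: aacgaggaaaTGACTCAaagggcagtg
Prdx1, second copy: gggaaagcgcTGAGTCAtcccccgtag
The second copy of Prdx1 lies within its antioxidant response element match shown above. The second copy of Srxn1, which is followed by gc, differs from the searched core TGACNNNGC only by G for C after TGA. These matches describe the letters of the promoters and not binding in these cells.

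Nfe2l2 (chr2:75675513-75704641, minus strand, GRCm38), the NRF2 gene, was higher in KO. Control replicates 1 to 3 held 47.0, 53.6 and 71.2 CPM, and KO replicates 1 to 3 held 88.3, 122.6 and 127.6 CPM. All KO libraries were above all control libraries, and KO was higher in 3 of 3 pairs of equal replicate number. The level rose from 57.3 ± 12.5 to 112.8 ± 21.4 CPM, a log2 fold change of 0.98 (SE 0.190, adjusted p by edgeR = 0.00370). The call held in each of 15 alternative fits, with log2 fold changes from 0.79 to 1.12.

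Keap1 (chr9:21229730-21239361, minus strand), the gene of the NRF2 inhibitor, was not called. Its 3 control libraries held 59.1, 62.5 and 62.4 CPM and its 3 KO libraries 59.5, 56.7 and 58.4 CPM. The ranges overlapped, and the log2 fold change of −0.076 (SE 0.101, adjusted p by edgeR = 0.562) had a 95% interval from −0.31 to 0.15. The transcripts of Keap1 were not called in any of the 15 alternative fits, and the sign turned with library size as the only scaling (0.012). An annotated gene on the other strand, Gm16754, covers 10.9% of its exonic bases, and the strand setting of the counting is not given in the sources used here.

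The ratio of Keap1 to Nfe2l2 CPM within a library was lower in every KO library than in every control library. It was 1.26, 1.17 and 0.876 in control replicates 1 to 3 and 0.673, 0.463 and 0.457 in KO replicates 1 to 3, with no overlap. The mean log2 ratio was 0.12 ± 0.275 in control and −0.94 ± 0.317 in KO, a difference of −1.06 (exact permutation test, two-sided, p = 0.1, and 0.1 adjusted over the 2 ratios tested). With 3 libraries per group 0.1 is the smallest p possible, so this test cannot pass 0.05. Leaving out each library in turn gave differences of −1.24 to −0.95.

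**Figure D2:**
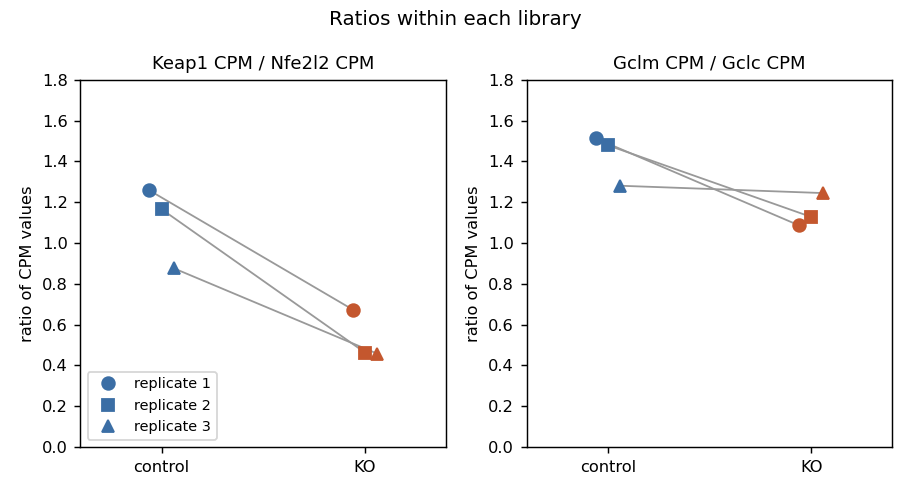
Ratio of Keap1 to Nfe2l2 CPM (left) and of Gclm to Gclc CPM (right) in each library, with grey lines joining libraries of equal replicate number and the vertical axis starting at 0. The Keap1 to Nfe2l2 ratio lies between 0.876 and 1.26 in control and between 0.457 and 0.673 in KO, and the Gclm to Gclc ratio between 1.28 and 1.51 in control and between 1.09 and 1.24 in KO.

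Among the partners and competitors of NRF2, 4 of 11 tested genes were called (36.4%, beside 46.1% of all tested genes), 3 higher and 1 lower. Bach1, a repressor that binds the same elements, rose from 8.61 ± 0.722 to 21.8 ± 3.43 CPM (log2 fold change 1.34, adjusted p by edgeR = 0.000595). Mafk, a small MAF partner of both NRF2 and BACH1, rose from 25.5 ± 1.31 to 58.8 ± 2.57 CPM (1.205, adjusted p by edgeR = 0.000200). Bach2, a BACH protein of lymphocytes, fell from 263 ± 20.05 to 169 ± 41.2 CPM (−0.64, adjusted p by edgeR = 0.0153), a call lost without KO replicate 2 and without KO replicate 3. The calls of Bach1 and Mafk held in all 15 alternative fits. Cul3, the scaffold of the ligase that KEAP1 joins, held 189 ± 13.6 and 196 ± 0.921 CPM (0.057, adjusted p by edgeR = 0.685), and its sign turned in 2 of the 15. Mafg was at 66.7 ± 8.598 and 54.5 ± 7.08 CPM and was not called (−0.29, adjusted p by edgeR = 0.128). With the replicate number as a block Mafg was called (adjusted p by edgeR = 0.0395), as it was without control replicate 3.

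Srxn1 (chr2:152105516-152111376, plus strand) encodes sulfiredoxin, which repairs overoxidized peroxiredoxins, and had the largest fold change of the 10 genes. It held 4.56, 3.92 and 5.80 CPM in control replicates 1 to 3 and 9.42, 12.6 and 13.9 CPM in KO replicates 1 to 3. Every KO library exceeded every control library. The mean rose from 4.76 ± 0.954 to 11.96 ± 2.30 CPM, a log2 difference of 1.33 (SE 0.236, adjusted p by edgeR = 0.00247), and the call held in all 15 alternative fits (1.18 to 1.47). Its promoter carries the match to the searched core just after the start site and both AP-1 copies printed above.

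Prdx1 (chr4:116685544-116700822, plus strand) encodes peroxiredoxin 1, the abundant cytosolic peroxidase that sulfiredoxin acts on, and its transcript was not called. The libraries held 338, 457 and 256 CPM in control and 451, 461 and 387 CPM in KO. Control replicate 2 lay within the KO range and the other control libraries lay below it. The log2 fold change was 0.31 (SE 0.200, adjusted p by edgeR = 0.238) with a 95% interval from −0.15 to 0.76. Its count is uncertain to the extent that 8.8% of its 50-base stretches are also found in other annotated transcripts, mainly those of Gm21399.

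Txnrd1 (chr10:82833951-82897712, plus strand) encodes the cytosolic thioredoxin reductase, a selenoprotein that returns thioredoxin to its reduced form with NADPH. Its level was 224, 256 and 172 CPM in control and 315, 272 and 307 CPM in KO. KO libraries all lay above control libraries, by a narrow margin between control replicate 2 and KO replicate 2. The mean rose from 218 ± 42.3 to 298 ± 23.0 CPM, a log2 difference of 0.45 (SE 0.157, adjusted p by edgeR = 0.0411). Leaving out any 1 library except control replicate 2 ended the call (5 of 6 such fits). With DESeq2 size factors in the edgeR fit it was lost as well (adjusted p = 0.0582). Without control replicate 3 the log2 fold change was 0.25 (adjusted p by edgeR = 0.186), and with replicates 1 and 2 alone it was 0.29 (adjusted p by edgeR = 0.144).

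Gpx1 (chr9:108338903-108340343, plus strand), the selenium-dependent glutathione peroxidase of the cytosol, was not called. Control libraries held 182, 243 and 115 CPM and KO libraries 260, 230 and 220 CPM, with control replicate 2 inside the KO range. The log2 fold change was 0.39 (SE 0.236, adjusted p by edgeR = 0.201), with a 95% interval from −0.14 to 0.93.

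The 3 peroxide genes Txnrd1, Prdx1 and Gpx1 shared 1 order among the control libraries: replicate 2 was highest and replicate 3 lowest in each. This order was not particular to them, as Gclm and Txn1 had it too. The fold changes of these 3 peroxide genes moved with the choice of control library. Without control replicate 3 the log2 fold change was 0.060 for Prdx1 and 0.089 for Gpx1, and without control replicate 2 it was 0.53 (adjusted p by edgeR = 0.0351) and 0.66 (adjusted p by edgeR = 0.0373), where both were called. Replicates 1 and 2 alone gave 0.20 for each, with neither called. When edgeR was given the replicate number as a block, Prdx1 (0.34, adjusted p = 0.0492) and Gpx1 (0.46, adjusted p = 0.0466) passed the threshold, so that 5 of the 10 genes were called higher, where that fit called 53.5% of all genes and 27% higher. Within pairs of equal number, KO was higher in 3 of 3 for Txnrd1 and Prdx1 and in 2 of 3 for Gpx1.

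Hmox1 (chr8:75093621-75100589, plus strand) encodes haem oxygenase 1, which breaks haem down to iron, carbon monoxide and biliverdin and is among the best known NRF2 and BACH1 targets. Unlike the other called members it was lower in KO. Control replicates 1 to 3 held 11.5, 13.5 and 12.3 CPM and KO replicates 1 to 3 held 9.11, 7.85 and 9.61 CPM, and the groups did not overlap. The mean fell from 12.4 ± 0.989 to 8.86 ± 0.906 CPM, a log2 difference of −0.49 (SE 0.170, adjusted p by edgeR = 0.0413). The direction held in all 15 alternative fits (−0.61 to −0.40), but the call was lost in 5 of the 6 that left out 1 library, all but the one without control replicate 3. Scaling by library size alone ended it too (adjusted p by edgeR = 0.0782), as did dropping the filter on low counts (adjusted p by edgeR = 0.0660).

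Hmox1 is abundant in macrophages, so markers of myeloid cells were examined beside it. The summed level of 7 myeloid markers was 2.58 to 5.203 CPM in control and 16.9 to 28.5 CPM in KO, opposite in direction to Hmox1. Most of it was Cd68, a lysosomal protein gene, at 3.19 ± 1.32 and 20.002 ± 6.11 CPM. Of the 7 markers 3 could be tested, and Cd68 and Csf1r were called higher. The third, Cd14, was at 0.302 ± 0.172 and 0.821 ± 0.338 CPM and was not called. Lyz2, too low to be tested, had 0, 2 and 4 counts in control and 46, 11 and 8 in KO, where every library was higher in CPM than those of control. The markers Itgam and Adgre1 had means under 0.05 CPM in both groups, and C1qa had no count in any library. The part of other cells in the Hmox1 result was not tested, and in bulk RNA a change in the share of cells and a change of RNA per cell cannot be told apart.

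Downstream and around haem oxygenase, 4 of 8 tested genes of haem and iron handling were called, 2 in each direction. This is 50% called and 25% in each direction. Over all tested genes the shares were close to that, at 46.1% called, 23.2% higher and 22.9% lower. Blvrb, a biliverdin reductase, fell from 4.18 ± 1.25 to 0.935 ± 0.119 CPM (log2 fold change −2.17, adjusted p by edgeR = 0.00130). Tfrc, the transferrin receptor that imports iron into dividing cells, fell from 1615 ± 194 to 733 ± 174 CPM (−1.14, adjusted p by edgeR = 0.00181). Both genes fell in all 15 alternative fits. Blvra, the other biliverdin reductase, was at 31.0 ± 6.51 and 25.8 ± 0.285 CPM and was not called (−0.27, adjusted p by edgeR = 0.208). The genes called higher were the ferritin heavy chain gene Fth1 (0.60), whose call was lost without control replicate 1, and the haem transporter gene Slc48a1 (0.47), whose call was lost in 5 of the 15.

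Nqo1 (chr8:107388225-107403206, minus strand) encodes a quinone reductase often used as a readout of NRF2 in other cells. Its counts were the lowest of the 10, with 16 to 77 counts in control libraries and 39 to 91 in KO libraries. These correspond to 0.973, 1.22 and 1.83 CPM in control and 2.16, 2.43 and 1.98 CPM in KO. The groups did not overlap, although control replicate 3 came close to KO replicate 3. The log2 fold change was 0.69 (SE 0.334, adjusted p by edgeR = 0.120), with a 95% interval from −0.068 to 1.45, and none of the 15 alternative fits called it. They ranged from 0.47 without control replicate 1 to 1.04 with replicates 1 and 2 alone. At this depth and spread the difference was not resolved.

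Gclc (chr9:77754535-77794485, plus strand) and Gclm (chr3:122245557-122270732, plus strand) encode the catalytic and the modifier subunit of glutamate-cysteine ligase, the rate-limiting enzyme of glutathione synthesis. Gclc held 28.6, 34.5 and 29.2 CPM in control and 34.9, 33.7 and 24.8 CPM in KO, which overlap. Its log2 fold change was 0.017 (SE 0.164, adjusted p by edgeR = 0.941), with a 95% interval from −0.35 to 0.39, and the sign turned in 5 of the 15 alternative fits. With replicates 1 and 2 alone Gclc was at 0.11 and was not called. Gclm held 43.2, 51.1 and 37.3 CPM in control and 37.9, 38.0 and 30.8 CPM in KO, again with overlap. It was lower in KO in 3 of 3 pairs of equal number but was not called (−0.30, SE 0.154, adjusted p by edgeR = 0.137, 95% interval −0.65 to 0.047). Without control replicate 3 Gclm was called (−0.47, adjusted p by edgeR = 0.0300), and without control replicate 2 it was −0.19.

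The Gclm to Gclc ratio in a library was 1.51, 1.48 and 1.28 in control replicates 1 to 3 and 1.09, 1.13 and 1.24 in KO replicates 1 to 3. All KO ratios lay below all control ratios, with replicate 3 of both groups close together. The mean log2 ratio was 0.51 ± 0.131 in control and 0.20 ± 0.101 in KO, a difference of −0.30 (p = 0.1 and 0.1 adjusted over the 2 ratios, from the same two-sided exact permutation test). With replicates 1 and 2 alone the difference was −0.43.

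**Figure D3:**
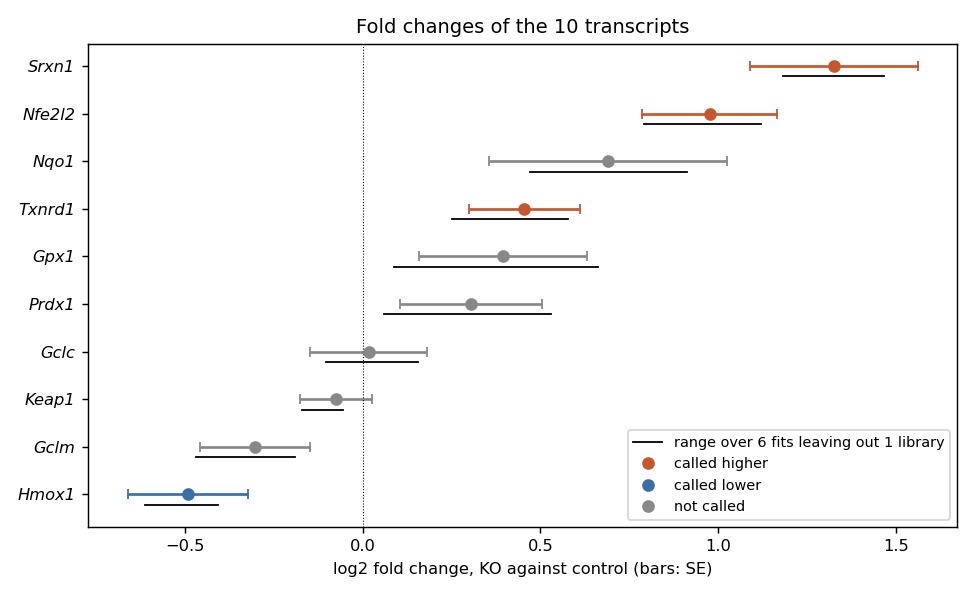
Log2 fold change of each of the 10 genes in KO against control (horizontal axis) with its SE, coloured by call, and below it a black line for the range over the 6 fits that left out 1 library. Srxn1 and Nfe2l2 lie farthest to the right at 1.33 and 0.98, Hmox1 is lowest at −0.49, and the ranges of Prdx1 (0.060 to 0.53) and Gpx1 (0.089 to 0.66) reach close to 0.

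Levels were compared between genes only per kilobase of exon, with exon lengths from GENCODE release M21. In control the order from high to low was Gpx1, Prdx1, Txnrd1, Nfe2l2, Keap1, Gclc, Hmox1, Gclm, Srxn1 and Nqo1, from 124.9 ± 44.7 to 0.863 ± 0.284 CPM per kilobase. Gpx1 and Prdx1 overlapped between libraries, as did Nfe2l2 with Keap1, Gclc with Hmox1 and Hmox1 with Gclm, so these neighbours cannot be ordered. In KO the same order held except that Gclm (5.65 CPM per kilobase) had a higher mean than Hmox1 (5.06), with overlapping libraries, so that these neighbours cannot be ordered there either. Hmox1 and Gclm also each overlapped Srxn1 (4.24 ± 0.814 CPM per kilobase) in KO. Nfe2l2 at 29.7 ± 5.64 and Keap1 at 12.4 ± 0.292 CPM per kilobase were apart in KO. The annotation counted by the submitters is not given in the sources used here, so these lengths are approximate.

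In the remaining glutathione genes, 8 of 13 tested genes were called, 6 lower and 2 higher. Slc7a11, which imports the cystine that glutathione synthesis needs and is an NRF2 and ATF4 target, fell from 4.97 ± 1.75 to 0.687 ± 0.139 CPM (log2 fold change −2.83, adjusted p by edgeR = 0.000635). Chac1, which degrades glutathione, fell from 16.2 ± 1.21 to 1.55 ± 0.881 CPM (−3.36, adjusted p by edgeR = 0.000334). The transporter gene Abcc1, whose product exports glutathione conjugates, fell from 158 ± 22.7 to 66.3 ± 15.2 CPM (−1.25, adjusted p by edgeR = 0.00117). Gss, the second enzyme of glutathione synthesis, fell from 22.02 ± 2.34 to 14.2 ± 1.603 CPM (−0.64, adjusted p by edgeR = 0.00952), and 15.4% of its exonic bases overlap Gssos2. The calls of Slc7a11, Chac1, Abcc1 and Gss held in the 15 alternative fits. Of the others, Ggt1 and Glrx2, called higher, lost the call in 7 of 14 and 2 of 15 fits. Slc3a2 and Glrx3, called lower, lost it in 7 and 2 of 15. Gsr, glutathione reductase, was at 87.7 ± 13.6 and 69.6 ± 5.58 CPM and was not called (−0.33, adjusted p by edgeR = 0.0743), but the replicate block brought it past the threshold (adjusted p by edgeR = 0.0264), as did leaving out control replicate 1. Among the glutathione transferases, 6 of 10 tested genes were called, all of them lower, with a median log2 fold change of −0.64. One of these, Gstm5 (−0.99, adjusted p by edgeR = 0.0489), lost its call in 12 of the 15 alternative fits. Gstp1 and Gstm1, also called lower, share 33.7% and 18.9% of their 50-base stretches with other genes. Over all tested genes 46.1% were called and 22.9% were lower.

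Of 16 tested genes of the thioredoxin system and the other peroxidases, 4 were called lower and 1 higher. That is 31.25% called, 25% lower and 6.25% higher, beside 46.1%, 22.9% and 23.2% of all tested genes. Txn1, the thioredoxin that Txnrd1 serves, held 443 ± 107 and 413 ± 80.8 CPM and was not called (−0.099, adjusted p by edgeR = 0.721), and its sign turned in 2 of the 15 alternative fits. Its inhibitor gene Txnip was at 131 ± 72.6 and 130 ± 23.6 CPM (−0.0065, adjusted p by edgeR = 0.988), and 19.4% of its exonic bases overlap Gm15441. Control replicate 3 held 214 CPM of Txnip against 82.6 and 95.5 CPM in control replicates 1 and 2, and Txnip was called higher without that library and with replicates 1 and 2 alone, with log2 fold changes of up to 0.49. Gpx4, which protects membrane lipids, was not called (−0.18, adjusted p by edgeR = 0.347), with 34.7% of its 50-base stretches shared with other genes. Of 4 tested genes of superoxide dismutases and catalase, 1 was called (25%, beside 46.1% of all tested genes). Sod2, the mitochondrial superoxide dismutase, which shares 50-base stretches with another annotated gene, fell from 95.5 ± 10.1 to 63.9 ± 2.77 CPM (−0.58, adjusted p by edgeR = 0.00411). Cytosolic Sod1 (0.21, adjusted p by edgeR = 0.247) and catalase, Cat (0.21, adjusted p by edgeR = 0.173), were not called.

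Further genes known as NRF2 targets in other cells went in both directions. Of 12 tested, 5 were called lower and 1 higher. That is 50% called, 41.7% lower and 8.33% higher, beside 46.1%, 22.9% and 23.2% of all tested genes. Nqo2, a relative of Nqo1, rose from 4.33 ± 0.917 to 33.1 ± 6.39 CPM (log2 fold change 2.94, adjusted p by edgeR = 8.93e-05). Serpinb6a, on the other strand, overlaps 18.9% of its exonic bases and was itself called higher (0.96, adjusted p by edgeR = 0.00370), so the Nqo2 value is uncertain. Trib3, a pseudokinase also known as an ATF4 target, fell from 50.5 ± 2.50 to 13.9 ± 2.28 CPM (−1.86, adjusted p by edgeR = 0.000120). Entpd5, an endoplasmic reticulum nucleotidase, fell from 32.6 ± 2.84 to 12.5 ± 2.91 CPM (−1.38, adjusted p by edgeR = 0.000805). Slc6a9, a glycine transporter gene, fell from 9.06 ± 0.619 to 1.25 ± 0.629 CPM (−2.85, adjusted p by edgeR = 0.000521), with 30.2% of its exonic bases shared with Ccdc24.

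Over all 10 related groups, 92 of 103 genes could be tested, and 43 were called, 34 lower and 9 higher. That is 46.7% called, next to 46.1% of all tested genes, with 37.0% lower (22.9% of all genes) and 9.78% higher (23.2% of all genes). The median log2 fold change was −0.21, beside 0.013 over all tested genes. These groups were also drawn up with earlier results of these data known, so the shares describe them and are not a test. Without KO replicate 2 the number called was 28, in a fit that called 4460 of all 14349 tested genes. With the replicate block 15 were higher and 37 lower, where 27% of all genes were higher.

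**Figure D4:**
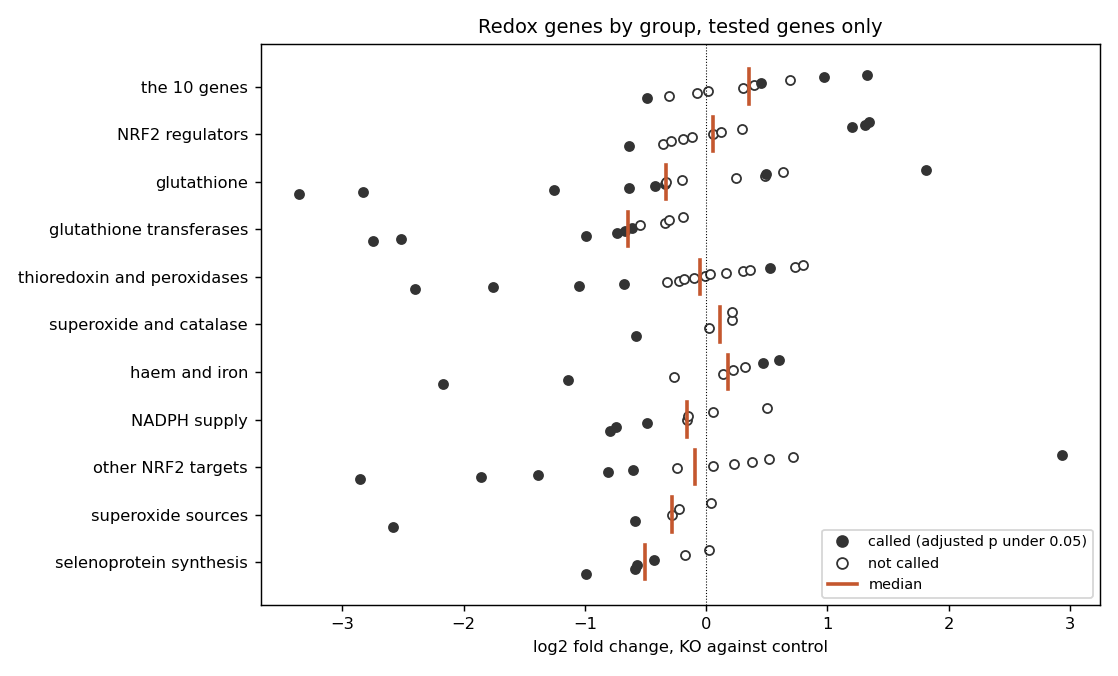
Log2 fold change in KO against control of each tested gene (circles, filled where called) in the 10 genes described and in 10 groups of related redox genes, with the median of each group as a vertical line. The medians run from −0.64 in the glutathione transferases to 0.35 in the 10 genes.

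The genes most like Nfe2l2, Hmox1 and Txnrd1 were sought among 9454 other named genes averaging 5 CPM or more, by the root mean square difference of centred log2 CPM over the 6 libraries. The nearest was Zfp3 for Nfe2l2 (0.050), Pspc1 for Hmox1 (0.047) and D8Ertd738e for Txnrd1 (0.045). The log2 fold changes were 0.96 for Zfp3, −0.54 for Pspc1 and 0.45 for D8Ertd738e. Since the match used these same 6 libraries, fold changes close to those of the matched genes follow from it and are no separate result.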

How the data were processed

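The table the authors deposited holds whole-number counts per gene symbol for 6 libraries, not normalized. The submitters' processing notes list STAR, featureCounts, DESeq2 and the build mm10. Versions, annotation and strand setting are not given in the sources used here. Every column (0 exceptions) belonged to a sample, and no line lacked a gene symbol.

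KO was compared with control by edgeR's quasi-likelihood test (edgeR 4.0.16, R 4.3.3) on all 6 libraries, with TMM factors, filterByExpr and Benjamini-Hochberg adjustment over 14268 genes, which held 99.9% of counts. The SE is the absolute log2 fold change over the square root of F, and 95% intervals use the test's degrees of freedom. The fit was tested on simulated data. DESeq2 1.42.0 was an alternative. CPM is given as mean ± SD over 3 libraries, and counts carry no stated molecular identifiers.

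Loci, exon lengths, exon overlap and shared 50-base stretches came from GENCODE M21 (GRCm38, the assembly of mm10), which held 98.2% of symbols.

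The members and gene lists were chosen with earlier results of these data known. Of the related genes, the text names those called with an absolute log2 fold change of at least 1 and a mean of at least 5 CPM, and 16 partners of members. Ncf1 is named among the closing observations. Fth1, Slc48a1, Serpinb6a, Ggt1, Glrx2, Slc3a2, Glrx3, Gstm1, Gstm5 and Gstp1 were named after their values were seen. So were the further genes of the closing observations. A few values that these rules would name are not reported here.

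Deviations of libraries from their group means correlated at 0.27, 0.13 and 0.38 for equal replicate numbers. Since each exceeded 0.1, KO and control were also compared within equal replicate numbers and with the replicate number as a block. The main fit, which gave the calls, had no block, and what the numbers mark is not stated. It called 4 members and 46.1% of all tested genes, and the fit with the block called 6 members and 53.5%. The closest library to control replicate 2 was KO replicate 1 (0.20).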

Additional observations from a re-analysis of the deposited data

How the results depend on the processing

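Each result was recomputed under 15 alternatives: 3 other scalings, TMM factors without the 50 most counted genes, 2 other filters, DESeq2, the replicate block, each library left out, and replicates 1 and 2 of both groups only. Rtf1, Nfe2l2 and Srxn1 kept direction and call in all 15. Both ratios kept their direction in the 8 run for them, although the replicate block among these could not change it. Leaving out 1 library, the members called numbered 2 to 5 (2 without control replicate 1 or any 1 KO library), those higher 2 to 5, those lower 0 to 2 (2 without control replicate 3, 0 in the other 5 fits), and their median log2 fold change was 0.075 (without control replicate 3) to 0.55 (without control replicate 2). Related genes called then numbered 28 (without KO replicate 2) to 45, and those higher 3 (without control replicate 1) to 11, with 4 without KO replicate 2 and 5 without KO replicate 3. With library size only, 0 members were called lower and the median was 0.44, while the median of all genes was 0.10. With no filter 0 members were called lower, since Hmox1 missed the threshold. The replicate block gave 5 members and 15 related genes higher. Among related genes named by the rule it changed only the calls of Mafg and Gsr. Its paired mean difference of −1.06 for the Keap1 to Nfe2l2 ratio equals the unpaired one by arithmetic (exact sign-flip test, two-sided, p = 0.25, the smallest possible with 3 pairs). Replicates 1 and 2 alone gave a median of 0.20. The sign turned for Keap1 with library size only (0.012) and for Gclc with upper-quartile factors (−0.00052) and in 4 of 6 fits without 1 library (−0.10 to −0.041 in those 4, −0.10 to 0.15 over all 6). The causes of these changes were not tested. Nqo1 had the fewest counts of the members, 16 to 91 per library.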

Other observations

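Genes that produce superoxide or supply reducing power were also measured. Of tested genes, 40% of the superoxide sources and 42.9% of the NADPH supply genes were called, all of them lower. Over all tested genes 46.1% were called and 22.9% were lower. Of 5 tested subunits of the phagocyte-type NADPH oxidase, 2 were called lower: Ncf1, which organizes the cytosolic subunits, fell from 39.9 ± 13.3 to 6.70 ± 1.495 CPM in KO (log2 difference −2.58, adjusted p by edgeR = 0.000264; 11.1% of its exonic bases overlap Gtf2ird2), and Ncf4 by 0.58 on the log2 scale (adjusted p by edgeR = 0.00563). Cybb, the catalytic subunit, was too low to be tested, at 0.0509 and 0.198 CPM on average. Of 7 tested genes of NADPH supply, 3 were called lower, namely Tkt (−0.79), Taldo1 (−0.75) and Pgd (−0.49, a call lost in 7 of 15 alternative fits), while G6pdx was not called (−0.16, adjusted p by edgeR = 0.355).

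Txnrd1 and Gpx1 encode selenoproteins. Of 6 tested genes of the machinery that inserts selenocysteine, 4 were called lower and 0 higher, while 46.1% of all tested genes were called and 22.9% were lower: Eefsec (−0.99), Sepsecs (−0.58), Pstk (−0.57) and Sephs2 (−0.43). Pstk and Sephs2 share 58.8% and 36.4% of their exonic bases with other genes and are uncertain. Their calls were lost in 4 and 5 of the 15, for Pstk with replicates 1 and 2 alone among others. The 10 members together took 0.0936%, 0.111% and 0.0738% of all counts in control replicates 1 to 3 and 0.130%, 0.129% and 0.120% in KO replicates 1 to 3, most of them from Prdx1, Txnrd1 and Gpx1.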
